A study of Mus musculus with 106 samples.

Results

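The genes described here were 10 markers by which macrophages are recognized or handle what they engulf: the lysozymes Lyz1 and Lyz2, the endolysosomal glycoprotein Cd68, the surface receptors Adgre1 (F4/80) and Itgam (CD11b), the receptor tyrosine kinases Mertk and Axl, the lipid-sensing receptor Trem2 with its adaptor Tyrobp (DAP12), and the fractalkine receptor Cx3cr1. They were chosen by name, as 10 of 21938 annotated protein-coding genes, and the rule used no threshold on a measured value. Each was read at its promoter, within 1 kb of any annotated start site, and across its gene body with 20 kb on either side.

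Histone marks were profiled by chromatin immunoprecipitation sequencing (ChIP-seq) in cells of C57BL/6J mice aged 12 to 14 weeks. H3K27ac, acetylation of histone H3 at lysine 27, marks active promoters and enhancers, and H3K4me3, trimethylation at lysine 4, marks promoters. Diabetes was induced with streptozotocin, a toxin of insulin-producing beta cells, at 42 to 45 mg/kg daily for 5 days. Diabetic mice were used 6 weeks after the last injection when blood glucose in the fed state exceeded 13.9 mmol/L, and control mice served for comparison. Haematopoietic stem cells (HSCs) were flushed bone marrow depleted of cells bearing CD3, CD4, B220, Ter119 or Gr1, so that the fraction was enriched by removal and not sorted on a stem cell antigen. Bone marrow-derived macrophages (BMDMs) were grown for 7 days with L929 cell-conditioned medium, a source of macrophage colony-stimulating factor, in 5 mmol/L glucose, and were then held for 16 hours in medium alone or with lipopolysaccharide (LPS, 100 ng/mL) plus interferon-γ (IFN-γ, 10 ng/mL). Cell type and culture therefore changed together and cannot be told apart. Each mark had 35 deposited peak lists, of 12 HSC, 11 unstimulated BMDM and 12 stimulated BMDM libraries. Of the 6 groups per mark, 5 had 6 libraries and unstimulated diabetic BMDM had 5. The labels do not tie a library to a mouse, so p-values measure the spread between libraries.

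The 70 lists held 13730 to 277213 peaks (median 110154). H3K27ac lists were of like length across cell states, with medians of 125766 peaks in HSCs, 111095 in unstimulated BMDMs and 111612 in stimulated BMDMs, whereas H3K4me3 lists were shorter in HSCs, with a median of 59726.5 against 131406 and 137890. Read depth is not recorded in these lists, and they leave out weak signal, so a promoter without a peak may still carry signal below the caller's threshold. In H3K27ac lists, 7 of 12 stem and progenitor genes had lower promoter levels in unstimulated BMDMs than in HSCs (limma adjusted p under 0.05), and none was higher. Of all genes tested in the same way, 14.2% were lower and 14.1% higher. The erythroid list was lower for 6 of 6 genes. Its mean promoter percentile lay between 53.2 and 76.2 in HSC libraries and between 25.0 and 37.4 in unstimulated BMDM libraries. Neutrophil genes were lower for 2 of 7 tested. S100a8 and S100a9 had no promoter peak in any BMDM library, but S100a8 had none in any HSC library either. These marker levels moved with cell type beside every cell type result given here, and their part in those results was not tested. In bulk chromatin, fewer cells carrying a mark and less of the mark in each cell cannot be told apart. Of the BMDM libraries, 3 had the lowest mean level over the stem genes (LPS+IFN-γ control replicate 3, unstimulated control replicate 1 and LPS+IFN-γ diabetic replicate 3, at 23.2, 26.3 and 29.6), and they also had the highest mean H3K27ac promoter levels over the 10 markers, at 52.9, 58.7 and 55.3, among BMDM libraries.

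As background, macrophages carry lysozyme to break bacterial cell walls, and Cd68 and F4/80 are used as labels of the lineage. Mertk and Axl bind the bridging protein Gas6, which coats dying cells, and so drive their engulfment. Trem2 has no signalling motif of its own and relays through Tyrobp to the kinase Syk, a route known from lipid-laden and tissue-repairing macrophages.

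Apart from Mertk, the promoters of these genes held fewer CpG dinucleotides than most, and CpG-rich promoters are known as a class that is broadly active and heavily trimethylated. In the 150 bases upstream of the first start site, Mertk held 10 CpG and Axl 4, whereas Lyz2 held 1 and Adgre1 none. These 4 are printed because they span the range of the set, from RefSeq GRCm38.p6 sequence, in the direction of transcription, with each CpG in capitals.
Mertk, chr2:128698806-128698955 (plus strand): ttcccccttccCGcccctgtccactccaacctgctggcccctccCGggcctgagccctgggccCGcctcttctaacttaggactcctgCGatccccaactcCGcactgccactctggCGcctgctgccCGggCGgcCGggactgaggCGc
Axl, chr7:25788706-25788855 (minus strand): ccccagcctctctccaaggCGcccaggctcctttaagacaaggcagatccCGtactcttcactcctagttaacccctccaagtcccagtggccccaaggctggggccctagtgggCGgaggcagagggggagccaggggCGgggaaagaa
Lyz2, chr10:117282322-117282471 (minus strand): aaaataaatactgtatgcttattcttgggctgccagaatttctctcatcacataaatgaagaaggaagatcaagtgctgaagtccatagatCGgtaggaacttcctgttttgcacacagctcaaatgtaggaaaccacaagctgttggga
Adgre1, chr17:57358541-57358690 (plus strand): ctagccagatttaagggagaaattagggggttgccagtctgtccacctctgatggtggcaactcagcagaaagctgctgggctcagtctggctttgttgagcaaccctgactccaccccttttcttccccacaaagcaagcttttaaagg
Over the whole 1 kb windows the CpG density per 100 bp was 3.70 for Mertk and 2.15 for Axl, higher than 53.6% and 34.6% of all protein-coding promoters. The other 8 genes held 0.500 to 1.499 CpG per 100 bp, with Adgre1 the lowest at percentile 6.96.

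Levels are given as promoter percentiles: the share of all protein-coding genes whose best promoter peak in the same library has a lower −log10 p-value, with 0 for a gene without a promoter peak. A distal percentile ranks in the same way the best peak of the gene body and its flanks that touches no protein-coding promoter. Each library is its own scale, so that a level is a rank within that library and not an amount of histone mark.

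Across the 35 H3K27ac libraries, Cd68, Axl and Tyrobp had a promoter peak in all 35, Mertk in 34, Cx3cr1 in 29 and Trem2 in 28. Adgre1 had one in 18, Lyz2 and Itgam in 12 each and Lyz1 in 6. For H3K4me3, Mertk had a promoter peak in 35 libraries, Axl in 33, Cd68 and Tyrobp in 25 each and Cx3cr1 in 20, and the other 5 genes in 11 or fewer: Trem2 in 11, Lyz2 in 6, Adgre1 in 4, Lyz1 in 2 and Itgam in 1. The order followed CpG content at its upper end, since Mertk and Axl had the most CpG and the most H3K4me3. When all genes were split by CpG density into 4 classes of equal size, 10.5% of the lowest class, 81.1% of the next and 99.8% and 100% of the upper classes had an H3K4me3 promoter peak in most unstimulated BMDM libraries.

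**Figure D1:**
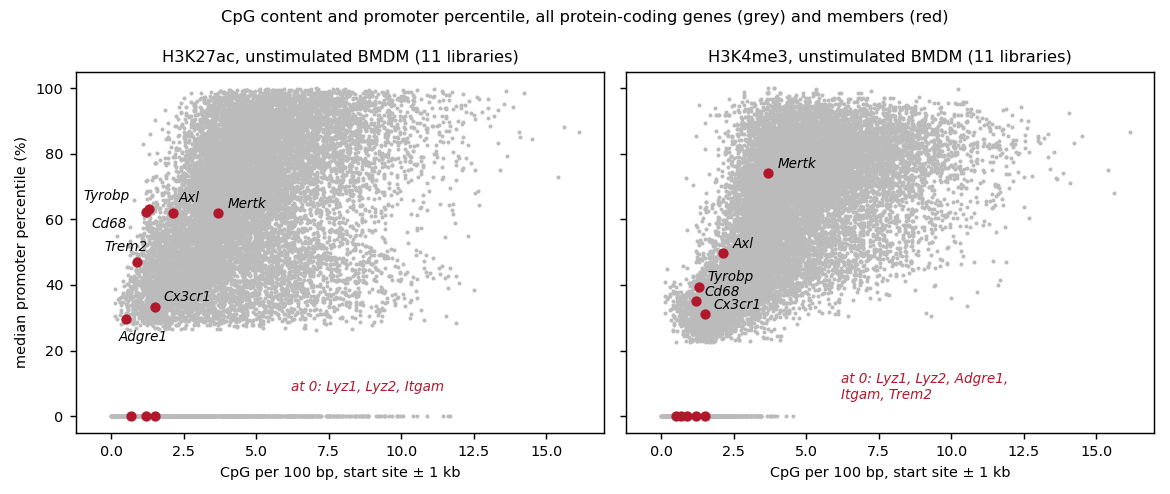
Median promoter percentile over the 11 unstimulated BMDM libraries (vertical axis, %) against CpG dinucleotides per 100 bp within 1 kb of the start site (horizontal axis), for H3K27ac on the left and H3K4me3 on the right, with all protein-coding genes in grey and the 10 markers in red. For H3K4me3, Mertk was at 74.1 and Axl at 49.7, and Lyz1, Lyz2, Adgre1, Itgam and Trem2 were at 0.

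**Figure D2:**
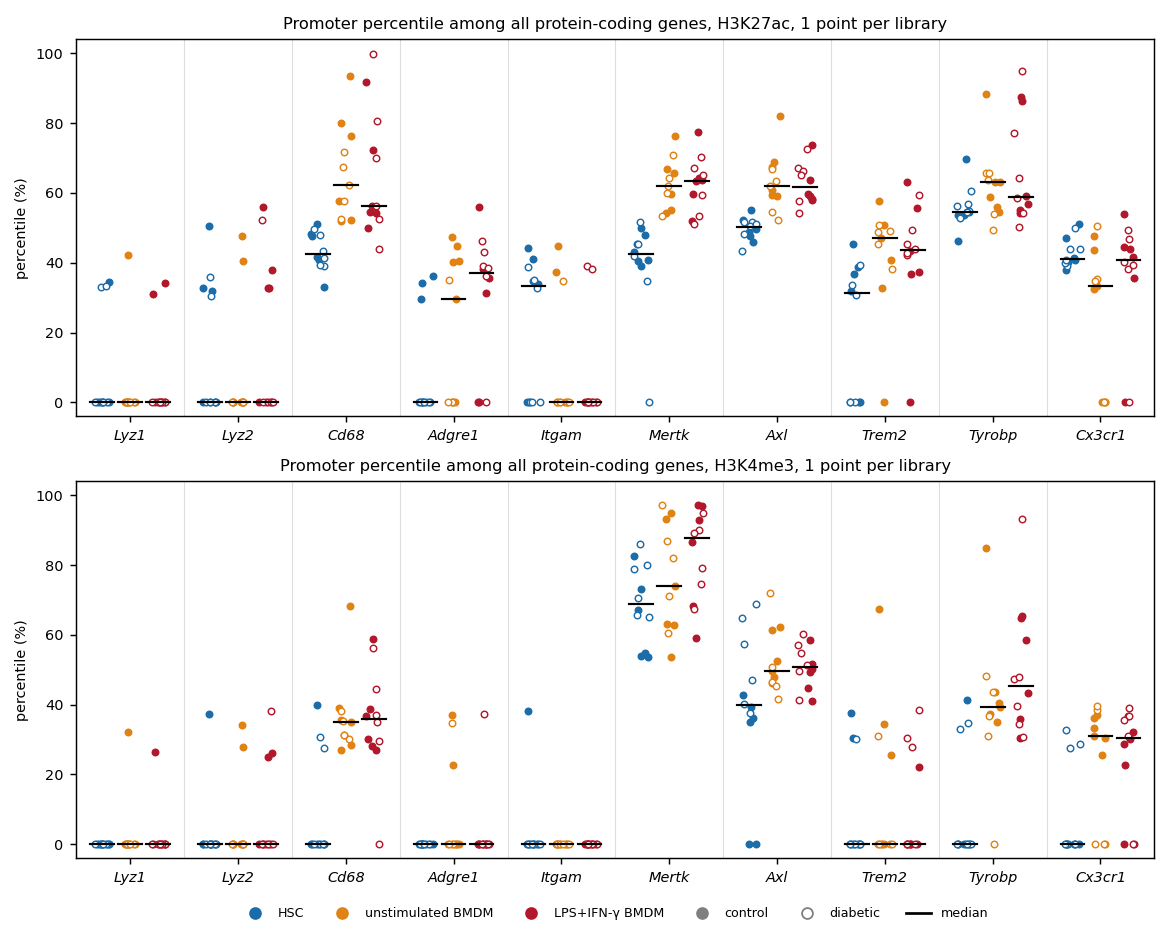
H3K27ac and H3K4me3 promoter percentiles of the 10 genes, 1 point per library, by cell state and by control or diabetic mice, with filled points for control and open points for diabetic mice and a line at the median of each cell state. H3K27ac levels of Mertk and Cd68 in unstimulated BMDMs lay above every HSC library, and points at 0 are libraries without a promoter peak.

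The first comparison asked which of these genes gained promoter acetylation between HSCs and unstimulated BMDMs. Of the 10 genes, 4 were called higher in BMDMs (Mertk, Cd68, Axl and Trem2) and 1 lower (Cx3cr1) by limma at a Benjamini-Hochberg adjusted p under 0.05, and 5 were not called. Over all 16825 genes tested, 14.1% were called higher and 14.2% lower. The median difference was 9.14 percentile points over the 10 genes and -0.426 over all genes tested. Every unstimulated BMDM library lay above every HSC library for Mertk and Cd68, 2 of the 10, against 1.87% of all genes.

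Lyz1 and Lyz2 encode secreted lysozyme, in mice split between a Paneth cell form and a macrophage form. They are neighbours on chromosome 10 (Lyz1 at chr10:117287797-117292868 and Lyz2 at chr10:117277331-117282321 in GRCm38, both on the minus strand), and their start sites lie 10547 bp apart. Their promoter windows were 80.7% identical over 1849 aligned bases. Whether any reads were placed on the wrong copy was not tested, so their values are uncertain. Lyz2, the lysozyme of macrophages, had an H3K27ac promoter peak in 5 of 12 HSC, 2 of 11 unstimulated BMDM and 5 of 12 stimulated BMDM libraries. Its levels ran from 0 to 50.6 in HSCs, 0 to 47.6 in unstimulated BMDMs and 0 to 56.1 in stimulated BMDMs, with a median of 0 in each state. The groups overlapped, and the difference of -7.80 ± 7.91 percentile points (SE) was not called (limma adjusted p = 0.491). Lyz1 had a peak in 3, 1 and 2 libraries of the same states, and its difference of -4.88 ± 5.51 was not called either (limma adjusted p = 0.541). In none of the 12 libraries with an H3K27ac peak in the Lyz2 promoter window did the strongest such peak cover the annotated start site. Acetylation at this locus lay away from the promoter: the zone from 5 to 1 kb upstream of Lyz2 held a peak in 9 of 12 HSC, 8 of 11 unstimulated and 11 of 12 stimulated libraries. The distal level of Lyz2 was 0 to 88.5 (median 54.3) in HSCs and 33.5 to 93.3 (median 75.3) in unstimulated BMDMs. The groups overlapped, and the rise of 17.7 ± 6.33 points was called (limma adjusted p = 0.0308). The call was lost when any 1 of 6 libraries was left out (control unstimulated BMDM replicates 1, 2 and 3, control HSC replicates 2 and 3 or diabetic HSC replicate 6), with differences of 13.1 to 16.6 points and limma adjusted p from 0.0506 to 0.0578. In control mice alone the difference was 5.85 (limma adjusted p = 0.696). For Lyz1 the distal difference of 15.5 ± 6.67 points was not called (limma adjusted p = 0.0724), and in stimulated BMDMs the best distal peak gave both genes the same levels, 64.3 to 84.6.

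Cd68, a glycoprotein of late endosomes and lysosomes (chr11:69664213-69666153, minus strand), had an acetylated promoter in all 35 libraries. Its level ran from 32.9 to 51.1 (median 42.6) in HSCs, from 52.1 to 93.5 (median 62.2) in unstimulated BMDMs and from 44.1 to 99.7 (median 56.2) in stimulated BMDMs. All 11 unstimulated BMDM libraries lay above all 12 HSC libraries, and the rise was 21.9 ± 5.52 points (limma adjusted p = 0.00308). It was 24.9 points in control mice (limma adjusted p = 0.0268) and 18.9 points in diabetic mice, where it was not called (limma adjusted p = 0.116). For H3K4me3 the promoter had a peak in 3 of 12 HSC libraries (0 to 39.8) and in 11 of 11 unstimulated BMDM libraries (26.96 to 68.4, median 35.1), a rise of 27.9 ± 5.96 points (limma adjusted p = 0.00161). In diabetic mice alone the H3K4me3 rise was 23.6 points and was not called (limma adjusted p = 0.137). With the top 20000 peaks it was 5.70 points (limma adjusted p = 0.705). The Eif4a1 start site lies 1910 bp from that of Cd68, and the best H3K27ac peak of Cd68 reached another promoter in 3 of 35 libraries. The best H3K4me3 peak covered an annotated Cd68 start site in 3 of the 25 libraries with one, and the best H3K27ac peak in 20 of 35. The distal level, read in a locus that also holds the start sites of 6 other genes, was 0 to 68.7 in HSCs and 0 to 97.04 in unstimulated BMDMs, and its difference of 28.6 ± 12.9 was not called (limma adjusted p = 0.0848).

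Adgre1, which encodes the adhesion receptor F4/80 (chr17:57358691-57483527, plus strand), had an H3K27ac promoter peak in 3 of 12 HSC, 6 of 11 unstimulated BMDM and 9 of 12 stimulated BMDM libraries. The level was 0 to 36.2 (median 0) in HSCs, 0 to 47.4 (median 29.5) in unstimulated BMDMs and 0 to 55.9 (median 37.1) in stimulated BMDMs. The overlapping groups differed by 12.0 ± 6.76 points, which was not called (limma adjusted p = 0.186). Distal acetylation was present in all 35 libraries, at 46.2 to 80.3 (median 70.3) in HSCs and 77.4 to 95.7 (median 84.8) in unstimulated BMDMs. The HSC group overlapped the BMDM group only at its upper end, and the rise of 20.2 ± 4.14 points was called (limma adjusted p = 0.000374). H3K4me3 lay away from the annotated start site of Adgre1, where 0 of 12 HSC, 3 of 11 unstimulated and 1 of 12 stimulated libraries had a peak, while the zone from 5 to 20 kb downstream held one in 10 of 12, 11 of 11 and 12 of 12.

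Itgam encodes CD11b, the integrin alpha chain that pairs with Itgb2 to form complement receptor 3 (chr7:128062640-128118491, plus strand). Its annotated start is shared with Gm49368, and the 2 cannot be told apart here. An H3K27ac promoter peak was present in 7 of 12 HSC libraries (0 to 44.2, median 33.3), 3 of 11 unstimulated BMDM libraries (0 to 44.8) and 2 of 12 stimulated BMDM libraries (0 to 39.0), and the difference of -11.4 ± 7.15 points was not called (limma adjusted p = 0.241). Between 5 and 1 kb upstream, by contrast, H3K27ac peaks were present in 12 of 12, 11 of 11 and 12 of 12 libraries, and H3K4me3 peaks in 6 of 12, 11 of 11 and 11 of 12. The distal level was high in both cell types, at 78.6 to 91.6 (median 88.3) in HSCs and 72.2 to 96.7 (median 84.6) in unstimulated BMDMs, and it differed by -1.17 ± 2.96 points (limma adjusted p = 0.797). Among partner genes of the list, Itgb2 rose by 10.7 ± 2.39 points distally (limma adjusted p = 0.000884), while its promoter differed by -11.7 ± 5.03 points in H3K27ac (limma adjusted p = 0.0797) and -6.80 ± 6.76 in H3K4me3 (limma adjusted p = 0.493). Itgax, the neighbouring CD11c chain, rose by 30.1 ± 6.23 points in promoter H3K4me3 (limma adjusted p = 0.00125) and differed by -7.65 ± 4.49 points distally (limma adjusted p = 0.191).

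**Figure D3:**
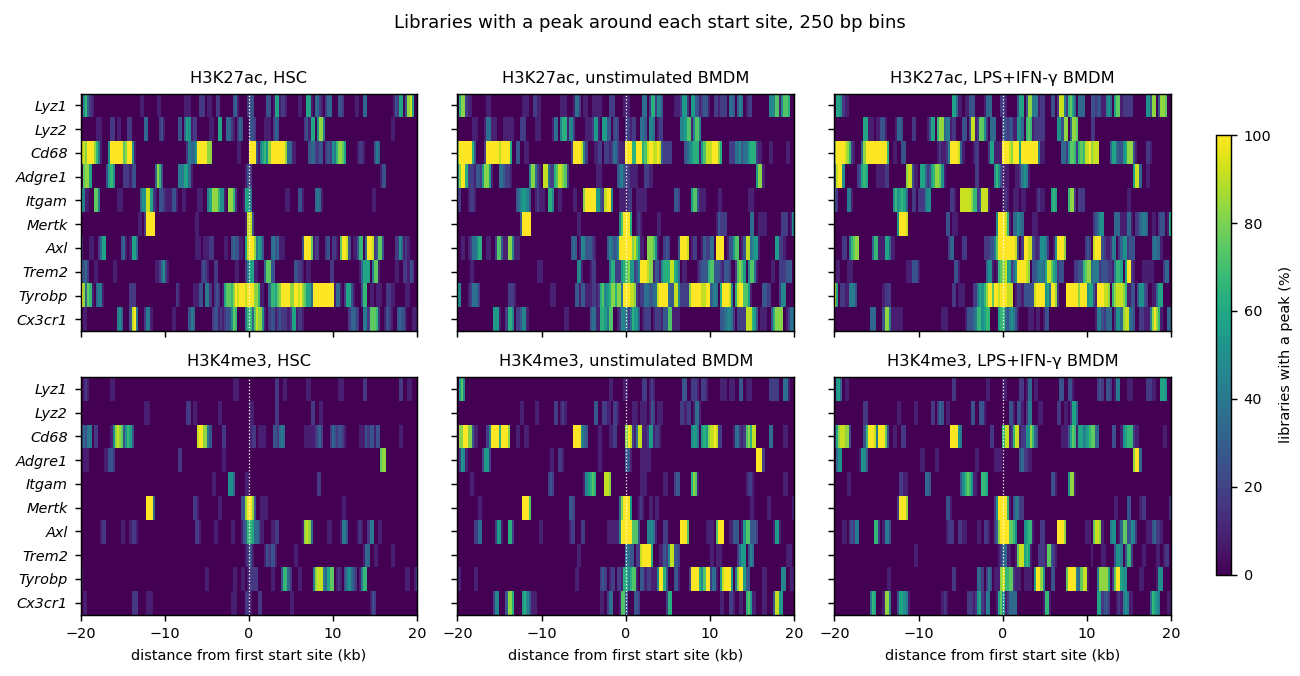
Percentage of libraries of each cell state with an H3K27ac (top) or H3K4me3 (bottom) peak, shown by colour in bins of 250 bp, by distance in kb from the first start site of each of the 10 genes, with downstream to the right. Itgam held H3K27ac between 5 and 1 kb upstream in all 35 libraries but within 1 kb of the start site in 12, and Trem2 held H3K4me3 between 1 and 5 kb downstream in 11 of 11 unstimulated BMDM libraries against 4 within 1 kb.

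Mertk, the receptor through which macrophages bind and engulf apoptotic cells (chr2:128698956-128802894, plus strand), gave the clearest difference of the set. Its H3K27ac promoter level was 0 to 51.6 (median 42.6) in HSCs, 53.5 to 76.2 (median 62.0) in unstimulated BMDMs and 51.1 to 77.5 (median 63.5) in stimulated BMDMs. The unstimulated BMDM libraries all lay above the HSC libraries, with a rise of 22.5 ± 4.17 points (limma adjusted p = 0.000116). Distally the contrast was wider: HSC libraries ran from 0 to 52.0 (median 14.4), with a distal peak in 6 of 12, and unstimulated BMDM libraries from 68.2 to 90.9 (median 79.9), with a peak in 11 of 11. The groups did not overlap, and the rise of 60.2 ± 4.82 points had a limma adjusted p of 1.84e-10. H3K4me3 was already present at the Mertk promoter in 12 of 12 HSC libraries, at 53.7 to 86.1 (median 68.9), and at 53.7 to 97.3 (median 74.1) in unstimulated BMDMs. This difference of 7.32 ± 5.64 points was not called (limma adjusted p = 0.364).

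Axl, the related kinase (chr7:25757273-25788705, minus strand), had promoter acetylation in every library. The level was 43.3 to 55.0 (median 50.2) in HSCs, 52.2 to 82.1 (median 62.0) in unstimulated BMDMs and 54.3 to 73.7 (median 61.8) in stimulated BMDMs. The groups overlapped narrowly, and the rise of 13.4 ± 2.60 points was called (limma adjusted p = 0.000214). It was 16.4 points in control mice, where it was called (limma adjusted p = 0.00198), and 10.4 points in diabetic mice, where it was not (limma adjusted p = 0.0629). The distal level was already 74.8 to 99.3 in HSCs and was 90.3 to 99.1 in unstimulated BMDMs, a difference of 6.42 ± 3.09 points that was not called (limma adjusted p = 0.108). Its H3K4me3 promoter level of 0 to 68.8 (median 39.8) in HSCs and 41.7 to 71.9 (median 49.7) in unstimulated BMDMs differed by 13.2 ± 5.201 points, which was not called (limma adjusted p = 0.0692). In control mice the mean rose from 25.6 to 53.3, without overlap (limma adjusted p = 0.0173), whereas in diabetic mice it was 52.6 in HSCs and 51.3 in BMDMs (limma adjusted p = 0.948). Of the listed ligand genes of this receptor family, Gas6 rose at its promoter by 31.7 ± 2.77 points (limma adjusted p = 2.35e-10) and distally by 35.4 ± 6.77 points (limma adjusted p = 0.000163). Pros1 (protein S) rose at its promoter by 11.4 ± 2.58 points (limma adjusted p = 0.00115). Tyro3, the other receptor of the family, differed by -0.907 ± 2.99 points at the promoter (limma adjusted p = 0.852) and rose distally by 26.6 ± 8.59 points (limma adjusted p = 0.0171).

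Trem2 (chr17:48346401-48354147, plus strand) had an H3K27ac promoter peak in 7 of 12 HSC libraries (0 to 45.2, median 31.3), 10 of 11 unstimulated BMDM libraries (0 to 57.8, median 47.1) and 11 of 12 stimulated BMDM libraries (0 to 63.2, median 43.7). The groups overlapped, and the rise of 20.96 ± 6.97 points was called (limma adjusted p = 0.0230). The call was lost in control mice alone (12.8 points, limma adjusted p = 0.418), in diabetic mice alone (29.1 points, limma adjusted p = 0.0505), with the top 20000 peaks (14.1 points, limma adjusted p = 0.299) and when peaks were ranked by fold enrichment (20.4 points, limma adjusted p = 0.0548). Distally Trem2 ran from 0 to 77.3 (median 60.4) in HSCs and from 84.2 to 97.2 (median 95.05) in unstimulated BMDMs, without overlap, and rose by 38.8 ± 6.06 points (limma adjusted p = 1.24e-05). H3K4me3 within 1 kb of the start sites was found in 3 of 12, 4 of 11 and 4 of 12 libraries and differed by 5.52 ± 6.81 points (limma adjusted p = 0.588).

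Tyrobp, the adaptor that carries the activating motif for Trem2 and related receptors (chr7:30413760-30417585, plus strand), was acetylated in every library. Its promoter level was 46.4 to 69.6 (median 54.5) in HSCs, 49.5 to 88.5 (median 63.0) in unstimulated BMDMs and 50.2 to 94.99 (median 58.9) in stimulated BMDMs. The difference of 6.24 ± 4.77 points was not called (limma adjusted p = 0.344). Its H3K4me3 promoter level, in contrast, ran from 0 to 41.3 in HSCs, with a peak in 3 of 12 libraries, and from 0 to 84.8 (median 39.5) in unstimulated BMDMs, with a peak in 10 of 11. That rise of 30.3 ± 7.14 points was called (limma adjusted p = 0.00360). With the log2 number of peaks of each list in the fit, the difference was 21.5 points and was no longer called (limma adjusted p = 0.116). Nor was it called in diabetic mice alone (20.6 points, limma adjusted p = 0.283). The top 20000 peaks (15.5 points), a promoter window of 500 bp (21.5 points) and normal scores also ended the call (limma adjusted p = 0.411, 0.0599 and 0.0529). The best H3K4me3 peak covered an annotated Tyrobp start site in 9 of the 25 libraries with one. The distal level was 78.1 to 98.1 in HSCs and 89.5 to 98.6 in unstimulated BMDMs and differed by 3.24 ± 2.18 points (limma adjusted p = 0.259). Among partners, the kinase Syk rose at its promoter in H3K27ac by 15.5 ± 3.13 points (limma adjusted p = 0.000330) and fell by 16.9 points in H3K4me3 (limma adjusted p = 0.0238). The related receptor genes Treml4, Trem3 and Trem1 had lower promoter acetylation in BMDMs, by -27.6, -22.6 and -22.4 points (limma adjusted p = 0.00144, 0.00834 and 0.0342).

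Cx3cr1, the receptor for fractalkine (chr9:119901616-120069879, minus strand), had called promoter differences of opposite direction for the 2 marks. The H3K4me3 difference was called within control mice and not within diabetic mice, and the H3K27ac difference within neither. H3K27ac was present at its promoter in 12 of 12 HSC libraries, at 37.9 to 51.2 (median 41.1), in 7 of 11 unstimulated BMDM libraries, at 0 to 50.6 (median 33.4), and in 10 of 12 stimulated libraries, at 0 to 53.8 (median 40.9). The fall of 17.8 points (SE 6.66) was called with overlapping groups (limma adjusted p = 0.0430), and leaving out 1 library ended the call for 13 of the 23, with limma adjusted p from 0.0501 to 0.0987. These were control replicates 5 and 6 and diabetic replicates 4 and 5 of unstimulated BMDM, control HSC replicates 1, 2, 3 and 5 and diabetic HSC replicates 2 to 6. The fall was not called in control mice alone (-16.9 points, limma adjusted p = 0.245) or in diabetic mice alone (-18.8 points, limma adjusted p = 0.206). The top 20000 peaks, a promoter window of 500 bp, no filter and leaving out 3 control BMDM libraries also ended the call (limma adjusted p = 0.259, 0.0605, 0.0652 and 0.196). H3K4me3 at the same promoter was found in 3 of 12 HSC libraries (0 to 32.8) and 8 of 11 unstimulated BMDM libraries (0 to 39.5, median 31.1), a rise of 16.5 ± 5.73 points (limma adjusted p = 0.0405) that lost its call without any 1 of 13 of the 23 libraries, with limma adjusted p from 0.0509 to 0.101. These were control replicates 1, 2, 4 and 6 and diabetic replicates 1 and 2 of unstimulated BMDM, control HSC replicates 2, 3, 5 and 6 and diabetic HSC replicates 1, 3 and 6. With the log2 number of peaks in the fit that rise was 8.35 points (limma adjusted p = 0.479). With the top 20000 peaks it was 0 points. Ranking by fold enrichment, normal scores and no filter also ended the call (limma adjusted p = 0.127, 0.194 and 0.0574). Of 13 alternative settings, 3 kept it. In control mice 0 of 6 HSC and 6 of 6 unstimulated BMDM libraries had the peak, and the mean rose from 0 to 32.3 (limma adjusted p = 0.0119). In diabetic mice 3 of 6 and 2 of 5 had it, with means of 14.9 and 15.6, a difference of 0.719 points (limma adjusted p = 0.977). The distal level was higher in BMDMs by 8.46 ± 2.00 points (limma adjusted p = 0.00161), at 83.3 to 96.99 (median 90.5) in HSCs and 96.6 to 99.9 (median 99.2) in unstimulated BMDMs. The annotated body of 168264 bp and its flanks hold start sites of Csrnp1, Gorasp1, Ttc21a, Wdr48 and Xirp1, so its distal peaks may belong to any of these genes. Cx3cl1, which encodes the ligand, differed by -2.43 ± 4.14 points at its promoter (limma adjusted p = 0.701).

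For distal H3K27ac as a whole, 5 of 10 genes were called higher in unstimulated BMDMs (Mertk, Trem2, Adgre1, Lyz2 and Cx3cr1) and none lower. Over all 19364 genes tested, 17.9% were called higher and 14.8% lower. Mertk and Trem2 had no overlap between the groups, 2 of the 10 genes against 0.909% of all genes. The median difference over the 10 genes was 16.6 points, and 1.45 over all genes. For promoter H3K4me3, Lyz1, Adgre1 and Itgam had a peak in fewer than 6 of 35 libraries and were not tested. Of the 7 that were, 3 were called higher (Cd68, Tyrobp and Cx3cr1) and none lower, against 12.2% and 5.34% of all genes. Each of the 3 had a peak in 3 of 12 HSC libraries, so it passed this filter only through BMDM libraries. Without the filter Cd68 and Tyrobp kept their calls and Cx3cr1 lost its call (limma adjusted p = 0.0574). No member had all BMDM libraries above all HSC libraries, as did 0.0643% of genes. The shorter H3K4me3 lists of HSCs moved with these 3 calls, and with the log2 number of peaks as a covariate 1 of the 3 remained, for Cd68.

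**Figure D4:**
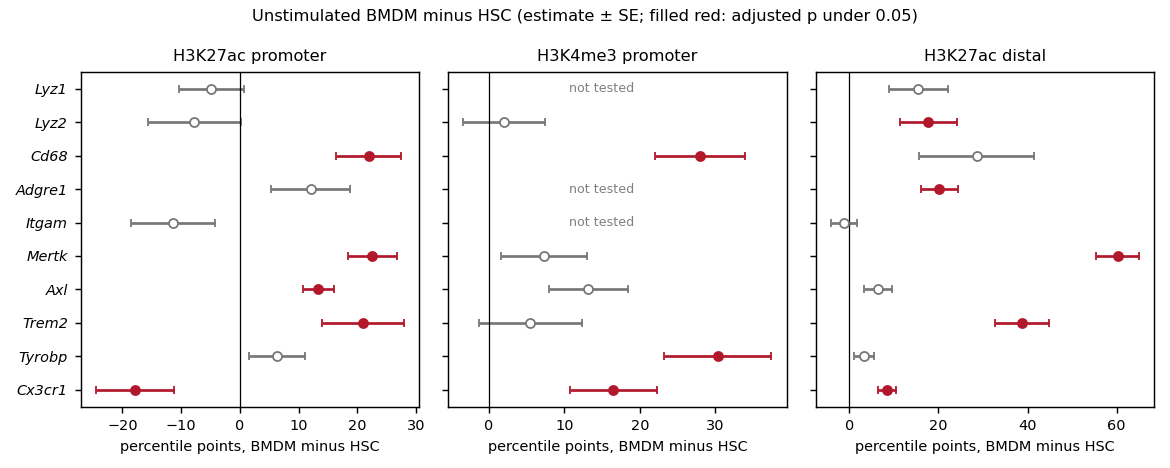
Difference in percentile points between unstimulated BMDMs and HSCs (positive is higher in BMDMs) for promoter H3K27ac, distal H3K27ac and promoter H3K4me3 of the 10 genes, with bars of 1 standard error from the limma fit and filled red points where the adjusted p was under 0.05. Distal H3K27ac of Mertk, at 60.2 ± 4.82 points, was the widest difference, and Cx3cr1 was the gene called lower for promoter H3K27ac.

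**Figure D5:**
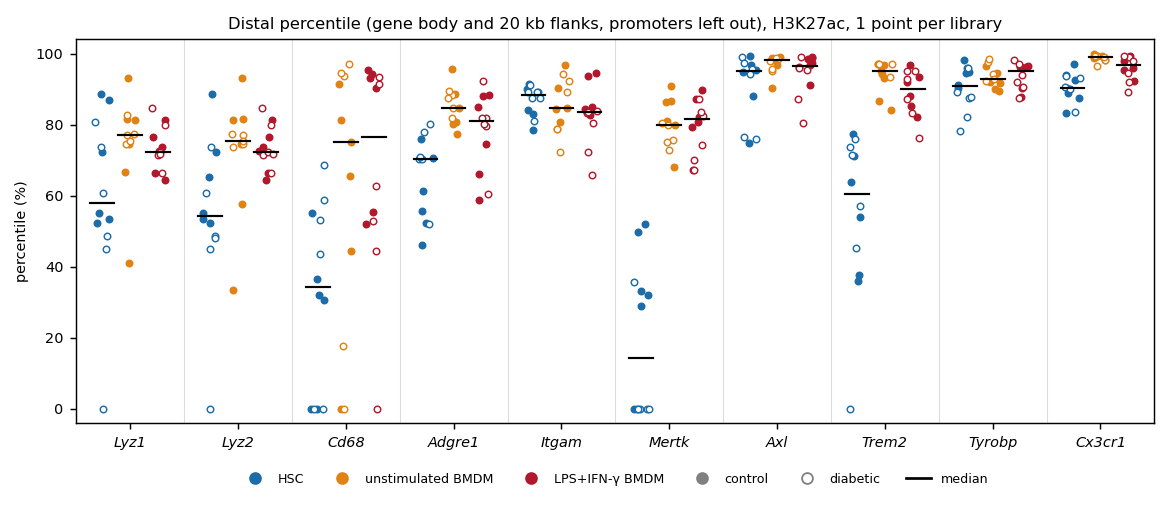
Distal H3K27ac percentile of the 10 genes, 1 point per library, by cell state and by control or diabetic mice, with filled points for control and open points for diabetic mice and a line at the median of each cell state. Mertk and Trem2 in unstimulated BMDMs lay above every HSC library, and Axl, Tyrobp, Itgam and Cx3cr1 were at 74.8 or higher in all 12 HSC libraries.

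The distal peaks were then placed. Merging the 20000 strongest peaks of each H3K27ac library and keeping regions held by at least 2 libraries gave 27656 regions outside protein-coding promoters, of which 49 lay in the loci of the 10 genes, 18 of them at Cx3cr1. In Fisher's exact test 2 of the 49 were held by more unstimulated BMDM than HSC libraries (adjusted p = 0.0420 each, exact), against 3.54% of all regions. They were chr7:30426802-30429367, within Nfkbid and downstream of Tyrobp, and chr17:57338692-57339838, 19427 bp from the Adgre1 start. Each was held by 8 of 11 BMDM and 1 of 12 HSC libraries. A region needed 2 libraries to enter the set, so both entered only with BMDM libraries. Leaving out 1 library at a time gave 0 to 2 calls, and fewer than 2 for 22 of the 23 libraries. Counting any deposited peak over the same regions, a comparison chosen after the data were seen, 7 of the 49 were called against 7.97% of all regions, and neither of the first 2 was among them, with peaks in 9 and 10 of 12 HSC libraries.

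Of those 7, 4 lay at Mertk. A pair past the 3' end of the gene, chr2:128804239-128805739 and chr2:128806139-128806681, centred 2095 and 3516 bp beyond it, had a peak in 0 of 12 HSC and 10 of 11 unstimulated BMDM libraries each (Fisher's exact adjusted p = 0.000445), and in 12 and 9 of 12 stimulated BMDM libraries. The intronic regions chr2:128733531-128733996 and chr2:128746053-128747151 had a peak in 0 of 12 HSC libraries and in 7 and 6 of 11 unstimulated BMDM libraries (exact adjusted p = 0.0126 and 0.0283). Downstream of Trem2, chr17:48355217-48356966 had a peak in 2 of 12 HSC and 9 of 11 unstimulated BMDM libraries (exact adjusted p = 0.0240). The other 2 lay in the Cx3cr1 body within Ttc21a and Csrnp1, chr9:119945038-119946211 and chr9:119973629-119974539, with peaks in 2 and 3 of 12 HSC and 10 of 11 BMDM libraries each (exact adjusted p = 0.00742 and 0.0215). No HSC library held any of these 7 regions among its strongest peaks, so all 7 entered the set only through BMDM libraries. The exact p-values take no account of this selection.

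The central 300 bases of 3 of these regions are printed on the plus strand of GRCm38.p6, 1 each from the loci of Mertk, Trem2 and Adgre1, as examples of regions called in either count. The Adgre1 region was called with the strongest peaks and not with any deposited peak. Capitals mark matches to the C/EBP motif TTGCNNAA or the AP-1 motif TGANTCA, searched on both strands together with the PU.1 motif GAGGAAGT. PU.1, C/EBP and AP-1 are factor families of myeloid cells.
Mertk, past the gene end, chr2:128804839-128805138: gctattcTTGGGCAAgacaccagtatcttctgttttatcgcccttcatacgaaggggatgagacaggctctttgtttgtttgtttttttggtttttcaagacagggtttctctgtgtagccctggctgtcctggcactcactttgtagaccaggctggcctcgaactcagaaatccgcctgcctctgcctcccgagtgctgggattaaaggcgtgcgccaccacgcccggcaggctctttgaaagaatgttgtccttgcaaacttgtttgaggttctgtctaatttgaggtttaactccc
Trem2, downstream, chr17:48355942-48356241: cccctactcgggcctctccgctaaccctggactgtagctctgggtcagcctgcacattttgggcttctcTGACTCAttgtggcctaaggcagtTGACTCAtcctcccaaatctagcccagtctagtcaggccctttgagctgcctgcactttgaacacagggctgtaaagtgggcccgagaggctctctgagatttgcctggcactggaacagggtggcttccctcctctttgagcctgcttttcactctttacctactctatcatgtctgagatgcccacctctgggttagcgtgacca
Adgre1, upstream, chr17:57339115-57339414: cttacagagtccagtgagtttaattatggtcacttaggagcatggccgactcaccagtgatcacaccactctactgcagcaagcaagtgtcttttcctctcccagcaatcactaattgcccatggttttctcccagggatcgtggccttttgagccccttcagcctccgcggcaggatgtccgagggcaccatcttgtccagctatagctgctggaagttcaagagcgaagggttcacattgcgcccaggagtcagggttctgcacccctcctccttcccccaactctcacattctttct
The Mertk region held 1 C/EBP match, read on the minus strand, and the Trem2 region 2 AP-1 matches, and the Adgre1 window held none of these letters. Over the 49 regions, 4 held the C/EBP motif and 4 the AP-1 motif, 8.16% each, against 7.89% and 7.16% of all 27656 regions. The PU.1 letters were in none of the 49 and in 2.16% of all regions.

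The response to LPS plus IFN-γ was compared between stimulated and unstimulated BMDMs. No member was called by limma for promoter H3K27ac (0 of 10), against 1.69% of all genes. At an unadjusted p under 0.05 there were 0 of the 10, against 16.4% of all genes. The differences ran from -3.89 points for Itgam to 10.97 points for Cx3cr1 (SE 6.66, limma adjusted p = 0.419). Mertk and Axl differed by -0.301 ± 4.17 and -0.0650 ± 2.60 points. None of the 10 was called distally, against 0.883% of all genes, and 0 had an unadjusted p under 0.05, against 12.5%. The widest distal fall was that of Adgre1, -7.42 ± 4.14 points (limma adjusted p = 0.488). For promoter H3K4me3, 0 of 7 members and 0% of all genes were called by limma. An unadjusted p under 0.05 was reached by 0 members and by 4.13% of all genes. Of the 49 regions, 0 were called by Fisher's exact test, with the strongest peaks or with any deposited peak, as were 0% of all regions. In exact permutation tests on single genes, unadjusted p-values under 0.05 were reached by 1 of 10 distal H3K27ac differences in control and 1 in diabetic mice, by 0 and 1 of 10 for promoter H3K27ac, and by 1 and 0 of 10 for promoter H3K4me3.

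Diabetic and control mice were compared within each cell state. For promoter H3K27ac, limma called 0 of 10 members in HSCs (against 0.0119% of all genes), 0 of 10 in unstimulated BMDMs (0%) and 0 of 10 in stimulated BMDMs (0%). Unadjusted p-values were below 0.05 in 0, 1 and 0 of them, against 2.37%, 5.40% and 4.97% of all genes. The 1 was Adgre1, at 0 to 47.4 in control and 0 to 35.1 in diabetic unstimulated BMDMs, with a peak in 5 of 6 and 1 of 5 libraries and means of 33.7 and 7.02 (limma adjusted p = 0.879). For distal H3K27ac, 0 of 10 were called in HSCs, unstimulated and stimulated BMDMs (against 0.0103%, 0.0155% and 0.00516% of all genes), and unadjusted p-values below 0.05 in 3, 0 and 1, against 5.52%, 5.63% and 4.74% of all genes. The 1 in stimulated BMDMs was Itgam, with means of 87.3 in control and 78.2 in diabetic mice (limma adjusted p = 1.00). The 3 in HSCs were Mertk, Tyrobp (means of 94.2 in control and 86.8 in diabetic mice, limma adjusted p = 0.830) and Lyz2 (64.5 and 46.0, limma adjusted p = 0.900). Mertk had a distal peak in 5 of 6 control HSC libraries (0 to 52.0, median 32.6) and in 1 of 6 diabetic libraries (0 to 35.7), with means of 32.6 and 5.95, a difference of -26.7 ± 6.66 points (limma adjusted p = 0.397). Without diabetic HSC replicate 4, the library with that peak, the difference was -32.6 and was called (limma adjusted p = 0.0353), and an exact permutation test on all 12 libraries gave an unadjusted p of 0.0541. The diabetic HSC lists were also shorter, with a median of 92673.5 H3K27ac peaks against 130591 in control HSCs. With the number of peaks in the fit the difference was -25.5 points (limma adjusted p = 0.863). With the top 20000 peaks of each list it was 0 points, and with normal scores it was not called (limma adjusted p = 0.999). For promoter H3K4me3, 0 of 7 were called in any of the 3 states, as were 0% of all genes. The unadjusted p was below 0.05 for 1, 0 and 0, against 6.07%, 3.92% and 3.89% of all genes. The 1 was Axl in HSCs, at 0 to 42.8 (median 35.7) in control and 37.6 to 68.8 (median 52.3) in diabetic libraries, a difference of 27.1 ± 7.18 points (limma adjusted p = 0.688).

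Whether diabetes changed the cell type or the stimulation difference was tested as an interaction. For promoter H3K27ac, limma called 0 of 10 members for cell type (against 0.00594% of all genes) and 0 of 10 for stimulation (0%). Unadjusted p-values were below 0.05 in 0 and 1, against 3.07% and 6.26% of all genes. The 1 was Adgre1, whose promoter level went from a mean of 33.7 to 26.8 with stimulation in control mice and from 7.02 to 33.9 in diabetic mice (interaction 33.7 ± 13.5 points, limma adjusted p = 0.758). For promoter H3K4me3, 0 of 7 were called in either interaction (0% of all genes), and 2 had an unadjusted p below 0.05 in each, against 4.58% and 3.64% of all genes. For cell type these were Cx3cr1 (interaction -31.5 ± 11.5 points) and Axl (-29.1 ± 10.4), both with a limma adjusted p of 0.976. For stimulation they were Cx3cr1 (27.6 ± 11.5) and Trem2 (27.5 ± 13.6), with limma adjusted p of 1.00.

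Other genes used as macrophage labels were read in the same way for context. Of 24 listed, 23 were matched to the annotation and 20 tested for promoter H3K27ac. Of these, 13 were called higher in unstimulated BMDMs and 1, the haemoglobin scavenger receptor Cd163, lower, with a median difference of 22.2 points. Over all genes tested, 14.1% were called higher and 14.2% lower. The complement genes C1qc and C1qa rose by 62.5 ± 6.27 and 58.0 ± 5.54 points (limma adjusted p = 4.21e-09 and 1.58e-09). C1qa had no promoter peak in any HSC library, and the scavenger receptor Marco and the phosphatidylserine receptor Timd4 had none in any of the 35 libraries. Distally 12 of 22 were higher and 1 lower, against 17.9% and 14.8% of all genes. For promoter H3K4me3 7 of 18 were higher and none lower, against 12.2% and 5.34% of all genes.

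The genes whose H3K27ac promoter pattern over the 35 libraries was most like that of each marker were found by Pearson's r, as a description over libraries that share cell type and depth. Mertk was nearest to Pid1 (r = 0.905) and Kitl (0.893), Tyrobp to Tctex1d4 (0.913) and Wdfy4 (0.875), Cd68 to Tnni2 (0.868) and Gas2l3 (0.862), and Trem2 to Csf1r (0.707), the receptor for macrophage colony-stimulating factor. For Axl the nearest were Inf2 (0.761) and Gpr157 (0.758), and for Lyz2 S100a5 (0.761) and Naip6 (0.711). Lyz1, Adgre1, Itgam and Cx3cr1 had no gene above 0.690. Among the markers themselves, Tyrobp and Cd68 were most alike (r = 0.850).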

How the data were processed

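H3K27ac and H3K4me3 were measured in 35 libraries each. Every deposited peak has a score, a ratio (fold enrichment over local background), a −log10 p-value and a −log10 q-value, which the authors computed per library against an input. The lowest −log10 q was 1.30. The submitters' processing notes name Trim Galore 0.3.3, cutadapt 1.8, FastQC 0.11.3, Bowtie2 2.2.6, Picard 2.18.14 and 2.19.2, bedtools 2.19.1, MACS2 2.2.7.1, GRCm38 and mm10. The 36 inputs were not analysed here. For unstimulated diabetic BMDM replicate 3 the series holds an input and no library of either mark. Read depth is unknown, and the length of each list limits which weak sites could be seen.

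Summits of 1 interval were joined, giving 7828714 peaks. Promoters reached 1000 bp either side of 93513 start sites of 21938 protein-coding genes (GENCODE M21), and flanks 20 kb. The best −log10 p of each gene was turned into a percentile within its library. For genes with a peak in at least 6 of 35 libraries, percentiles were compared by limma 3.58.1 (R 4.3.3), with 1 mean for each of 6 groups in 1 fit per mark and measure and Benjamini-Hochberg adjustment over all genes (threshold 0.05). Single genes were also compared by two-sided exact permutation tests. Regions were merged from the 20000 strongest peaks of each H3K27ac library and compared by two-sided Fisher's exact test. Python 3.11.15, pandas 2.3.3, numpy 2.4.6 and scipy 1.17.1 were used, and the tests were checked on simulated data. The members and lists were chosen with earlier results of these data known. All 10 members were named, along with the partner genes, the 3 other macrophage genes of largest difference (1 of which is not reported here) and the 2 genes most like each member. Genes that depart from this rule, such as Cd163, Marco, Timd4, S100a8 and S100a9, were named after their values were seen. Alternatives were ranking by fold enrichment, 20000 peaks per list, normal scores, narrower windows and flanks, a minimum overlap, no filter, a covariate for list length, a replicate block and left-out libraries. Those without 3 BMDM libraries low in stem genes, and with all deposited peaks over the regions, were chosen after the data were seen.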

Additional observations from a re-analysis of the deposited data

Results flagged for a closer look

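In 36 of 160 groups of 5 or 6 libraries (22.5%), 1 library stood apart from the rest by Dixon's criterion, which chance gives in about 5% of groups. Many of these groups had a peak in a single library, with the others at 0, and no explanation was tested. Levels below are percentiles within the library.

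Of the lysozymes, Lyz1 H3K27ac was at 34.5 in control HSC replicate 4 and at 42.3 in control unstimulated BMDM replicate 1, and Lyz1 H3K4me3 at 32.2 in control unstimulated BMDM replicate 1 and at 26.3 in control LPS+IFN-γ BMDM replicate 5, with all other libraries of each group at 0. Likewise Lyz2 H3K27ac was at 52.4 in diabetic LPS+IFN-γ BMDM replicate 3, and Lyz2 H3K4me3 at 37.4 in control HSC replicate 4 and at 38.2 in diabetic LPS+IFN-γ BMDM replicate 5, with the others at 0.

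Cd68 H3K4me3 was at 39.8 in control HSC replicate 2 with the others at 0, at 68.4 in control unstimulated BMDM replicate 1 (others 26.96 to 39.0) and at 58.7 in control LPS+IFN-γ BMDM replicate 3 (others 26.9 to 38.7). Adgre1 promoter H3K27ac was at 35.1 in diabetic unstimulated BMDM replicate 6 with the others at 0, and at 0 in diabetic LPS+IFN-γ BMDM replicate 2 (others 36.1 to 46.4). Adgre1 H3K4me3 was at 34.8 in diabetic unstimulated BMDM replicate 4 and at 37.3 in diabetic LPS+IFN-γ BMDM replicate 5, with the others at 0, and its distal H3K27ac was at 51.9 in diabetic HSC replicate 4 (others 70.2 to 80.3). Itgam promoter H3K27ac was at 34.8 in diabetic unstimulated BMDM replicate 6 and its H3K4me3 at 38.3 in control HSC replicate 4, with the others at 0, and its distal H3K27ac was at 81.0 in diabetic HSC replicate 3 (others 87.4 to 91.3).

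Mertk promoter H3K27ac was at 0 in diabetic HSC replicate 6 (others 34.9 to 51.6), and its distal H3K27ac at 35.7 in diabetic HSC replicate 4 with the others at 0. Axl promoter H3K27ac was at 73.7 in control LPS+IFN-γ BMDM replicate 1 (others 58.0 to 63.9), and its distal H3K27ac at 90.3 in control unstimulated BMDM replicate 1 (others 96.8 to 99.1) and at 91.1 in control LPS+IFN-γ BMDM replicate 3 (others 96.7 to 99.2).

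Trem2 H3K4me3 was at 30.03 in diabetic HSC replicate 2, at 30.9 in diabetic unstimulated BMDM replicate 1 and at 22.2 in control LPS+IFN-γ BMDM replicate 6, with the others at 0, and Trem2 distal H3K27ac at 93.4 in diabetic unstimulated BMDM replicate 2 (others 96.9 to 97.2). Tyrobp promoter H3K27ac was at 69.6 in control HSC replicate 4 (others 46.4 to 54.5) and at 88.5 in control unstimulated BMDM replicate 1 (others 54.7 to 63.1). Tyrobp H3K4me3 was at 41.3 in control HSC replicate 3 with the others at 0, at 84.8 in control unstimulated BMDM replicate 1 (others 35.03 to 43.6) and at 93.3 in diabetic LPS+IFN-γ BMDM replicate 3 (others 30.6 to 47.8). Cx3cr1 promoter H3K27ac was at 0 in control LPS+IFN-γ BMDM replicate 6 (others 35.5 to 53.8) and in diabetic LPS+IFN-γ BMDM replicate 4 (others 38.3 to 49.4), its H3K4me3 at 0 in diabetic LPS+IFN-γ BMDM replicate 6 (others 30.9 to 39.0), and its distal H3K27ac at 83.5 in diabetic HSC replicate 6 (others 89.9 to 93.7).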

How the results depend on the processing

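Of 602 settings of the counts of called genes and regions, 567 gave a count within 1.5 times that reported, and of 453 settings for the 13 called member results 387 kept the call, 66 lost it and 0 reversed it. For promoter H3K27ac the 5 calls between HSCs and unstimulated BMDMs became 3 with the top 20000 peaks, 3 in control mice only and 1 in diabetic mice only, and were 4 to 5 with 1 library left out. For promoter H3K4me3 the 3 calls became 1 with normal scores, 1 with the log2 number of peaks as a covariate and 0 in diabetic mice only, and were 2 to 4 with 1 library left out. With the top 20000 peaks 1 gene was called, but Cd68, Tyrobp and Cx3cr1 all lost their calls. The 5 distal calls ranged from 4 to 6. The 2 called regions became 1 without 3 control BMDM libraries (LPS+IFN-γ replicate 5 and unstimulated replicates 5 and 6), 0 without the 3 BMDM libraries low in stem genes, 7 with all deposited peaks, and 0 in control or in diabetic mice only, and were 0 to 2 with 1 library left out. Distal calls between diabetic and control HSCs were 0 to 1, the 1 being Mertk without diabetic HSC replicate 4. The causes were not tested, although fits in 1 disease group hold fewer libraries.

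Without the 3 BMDM libraries low in stem genes, promoter H3K27ac had 5 calls, distal H3K27ac 4 and promoter H3K4me3 2. Deviations of libraries with the same replicate number correlated with r from -0.306 to 0.363. Between unstimulated and stimulated BMDMs the medians were 0.0621 to 0.197 for the same number and -0.0836 to -0.0213 for other numbers, a hint from the data. In 0 of 12 comparisons were all pairs over 0.1, so the numbers were not taken to pair libraries. With a replicate block the calls were 5 for promoter H3K27ac, 4 distally, where Lyz2 was lost (19.2 points, limma adjusted p = 0.104), and 2 for promoter H3K4me3, where Cx3cr1 was lost (15.01 points, limma adjusted p = 0.0905). The block left the other comparisons at 0 calls. Lists hold called peaks only, and read depth is unknown, so a level of 0 is not an absence of the mark.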
